A study of Mus musculus with 8 samples.

Results

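Potassium channel genes and the hyperpolarization-activated HCN genes were measured in the adult mouse geniculate ganglion, the cranial sensory ganglion of the facial nerve that holds taste neurons and touch neurons of the outer ear. The set was every row of the expression table whose symbol began with Kcn, or was Hcn followed by a digit. It held 84 of the 15110 genes in the table, of which 82 encode channel subunits and 2 (Kcnmb4os2 and Kcnq1ot1) are noncoding transcripts. Bulk RNA-seq had been run on ganglia of 4 wild type littermates (Egr4+/+) and 4 knockout mice (Egr4-/-), all adults of the C57Bl/6 strain, with no other allele or treatment named. Egr4 belongs to the early growth response (EGR) genes, which encode zinc finger proteins that bind DNA. The labels name no Cre line or promoter, so the deletion was not described as limited to 1 cell type, and each library held RNA of all cells in the ganglia, neurons, glia, vessels and connective tissue together. None of the 84 genes differed between genotypes after adjustment over all genes. In wild type ganglia the channel RNA was led by the two-pore subunit Kcnk1, the Kv1 auxiliary subunit Kcnab2, the inward rectifier Kcnj13 and the pacemaker subunit Hcn2.

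Potassium channels let potassium leave the cell and so set the resting potential, repolarize the action potential and limit firing rate. Voltage-gated Kv subunits assemble as tetramers within a family, and the silent modifier subunits conduct only when they join Kv2 subunits. Kv4 channels carry transient A-type current with KChIP auxiliary subunits (Kcnip genes), and Kv7 channels carry the M current that damps repetitive firing. Two-pore channels carry leak current, inward rectifiers hold the membrane near the potassium equilibrium and, in glia, take up potassium. HCN channels open on hyperpolarization, carry a mixed sodium and potassium current and shape rhythmic firing in sensory neurons.

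Because EGR factors bind GC-rich DNA, the letters GCGNGGGCG were searched on both strands of RefSeq promoter sequences (GRCm38.p6, 250 bases before to 50 bases after the start). Of the 84 genes, 60 had such an entry, and 4 of these (6.67%) held the letters: Hcn2, Kcna4, Kcnk2 and Kcnt2. The share was 6.27% over the 27025 genes with a promoter in the reference and 11.9% over the 11424 of them in the expression table; no test was run on these shares. The median GC content of the members' promoters was 58.2%, against 52.7% over all promoters. The 4 promoters with a match are shown because a deleted EGR factor is the variable of the study, and the Kcnj13 promoter is shown as that of the member with the smallest p-value. Capitals mark the match, which lies on the minus strand of the printed sequence in Hcn2, Kcna4 and Kcnt2 and on its plus strand in Kcnk2. They lie at chr10:79716384-79716683 (plus strand) for Hcn2, chr2:107290339-107290638 (plus strand) for Kcna4, chr1:189343304-189343603 (minus strand) for 1 of the 4 Kcnk2 starts, chr1:140245468-140245767 (plus strand) for Kcnt2 and chr1:87394680-87394979 (minus strand) for Kcnj13.
Hcn2: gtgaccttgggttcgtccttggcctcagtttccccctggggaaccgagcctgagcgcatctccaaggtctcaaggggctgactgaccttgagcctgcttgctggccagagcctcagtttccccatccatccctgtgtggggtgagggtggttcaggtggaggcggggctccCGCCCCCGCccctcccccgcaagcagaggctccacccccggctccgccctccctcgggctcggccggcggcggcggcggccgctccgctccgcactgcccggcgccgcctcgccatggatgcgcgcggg
Kcna4: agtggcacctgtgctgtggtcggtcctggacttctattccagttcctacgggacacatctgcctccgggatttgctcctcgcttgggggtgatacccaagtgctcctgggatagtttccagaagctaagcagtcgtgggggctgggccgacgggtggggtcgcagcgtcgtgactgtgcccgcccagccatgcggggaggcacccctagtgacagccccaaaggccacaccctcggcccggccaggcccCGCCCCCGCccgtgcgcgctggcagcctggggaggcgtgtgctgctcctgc
Kcnk2: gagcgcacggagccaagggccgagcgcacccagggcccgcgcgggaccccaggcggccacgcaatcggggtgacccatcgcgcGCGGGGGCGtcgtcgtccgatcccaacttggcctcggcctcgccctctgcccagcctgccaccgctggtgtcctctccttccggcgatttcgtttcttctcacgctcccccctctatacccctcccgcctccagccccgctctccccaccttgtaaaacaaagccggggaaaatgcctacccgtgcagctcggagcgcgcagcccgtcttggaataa
Kcnt2: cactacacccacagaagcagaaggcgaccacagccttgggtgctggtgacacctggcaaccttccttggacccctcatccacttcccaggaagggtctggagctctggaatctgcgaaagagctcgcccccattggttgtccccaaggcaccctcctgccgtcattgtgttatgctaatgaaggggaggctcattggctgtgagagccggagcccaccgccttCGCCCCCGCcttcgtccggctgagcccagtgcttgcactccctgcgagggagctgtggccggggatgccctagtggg
Kcnj13: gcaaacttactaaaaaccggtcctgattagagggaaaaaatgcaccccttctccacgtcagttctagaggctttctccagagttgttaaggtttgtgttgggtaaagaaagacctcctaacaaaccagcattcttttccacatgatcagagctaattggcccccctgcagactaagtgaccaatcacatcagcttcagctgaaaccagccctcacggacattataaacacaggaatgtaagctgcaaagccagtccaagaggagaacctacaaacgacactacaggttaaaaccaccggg
The Kcnj13 window holds no such letters. A match is a run of letters and not a measured binding site, and its absence in a window says nothing about the factor. None of the 4 genes with a match passed the test between genotypes, and Kcnk3 had no entry in the promoter table.

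The 8 libraries held 30849310 to 54255872 counted reads, and the 84 genes took 0.222% to 0.343% of each. Egr4 itself stood at 1.54, 3.14, 0.925 and 3.24 CPM (read counts scaled to library size) in wild type libraries 1 to 4 and at 0.444, 1.22, 0.940 and 1.04 CPM in knockout libraries 1 to 4. Wild type library 3 lay below 3 of the knockout libraries for this gene, and the labels do not say which part of it is deleted. Ganglion markers were present in every library: the ATP receptor gene P2rx3 stood at 59.9 to 129 CPM in wild type and 51.7 to 79.95 CPM in knockout libraries, and the summed level of 12 geniculate neuron markers at 833 to 1144 CPM and 669 to 809 CPM. Markers of other tissue were present as well, in unequal amounts. Summed choroid plexus and meninges markers ran from 14563 to 36724 CPM in wild type and from 27894 to 97677 CPM in knockout libraries. Ptgds alone made up most of that sum in every library, at 9812 to 29939 CPM and 24191 to 92176 CPM. The mean log2 CPM of the 12 genes ran from 6.01 to 6.69 and from 6.31 to 7.81. Summed brain neuron markers ran from 169 to 1195 CPM in wild type and from 188 to 2033 CPM in the knockout. Their mean log2 CPM ran from 1.51 to 3.28 and from 2.80 to 5.78. None of the 12 choroid and meninges genes or the 14 brain neuron genes was at 0 in all libraries. That held for every measured gene, as the low-count filter removed 0 of 15110, so it says nothing about other tissue. Xist, a transcript of the inactive X chromosome, had no count in knockout libraries 1 and 2 and in wild type library 4.

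Levels were compared between genes only as FPKM, which divides by gene length. In wild type ganglia 56 of the 84 genes (66.7%) reached 1 FPKM, against 82.8% of all genes in the table. Kcnk1 (TWIK-type leak subunit) had the highest level, a mean log2 FPKM of 6.73 ± 0.31 (SD, n = 4), which was above 94.8% of all genes. It was followed by Kcnab2 (6.24 ± 0.38), Kcnj13 (5.56 ± 0.52), Hcn2 (5.56 ± 0.54), Kcna1 (5.31 ± 0.46) and Kcnip3 (5.29 ± 0.22). Kcnk1 stood above Kcnab2, and Kcnab2 above Kcnj13, by more than the SD of either; each neighbour from Kcnj13 to Kcnip3 lay within 1 SD of the next. Of the summed FPKM of the 84 genes in wild type, which was 762 ± 98.8 (SD, n = 4), auxiliary subunits made up 25.5%, two-pore channels 19.8%, inward rectifiers 11.1%, Kv1 subunits 9.14% and HCN subunits 8.60%. The silent modifiers made up 7.11%, and Kv2, the family they join, 1.13%. In the knockout the sum was 846 ± 97.1 FPKM (SD, n = 4).

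**Figure D1:**
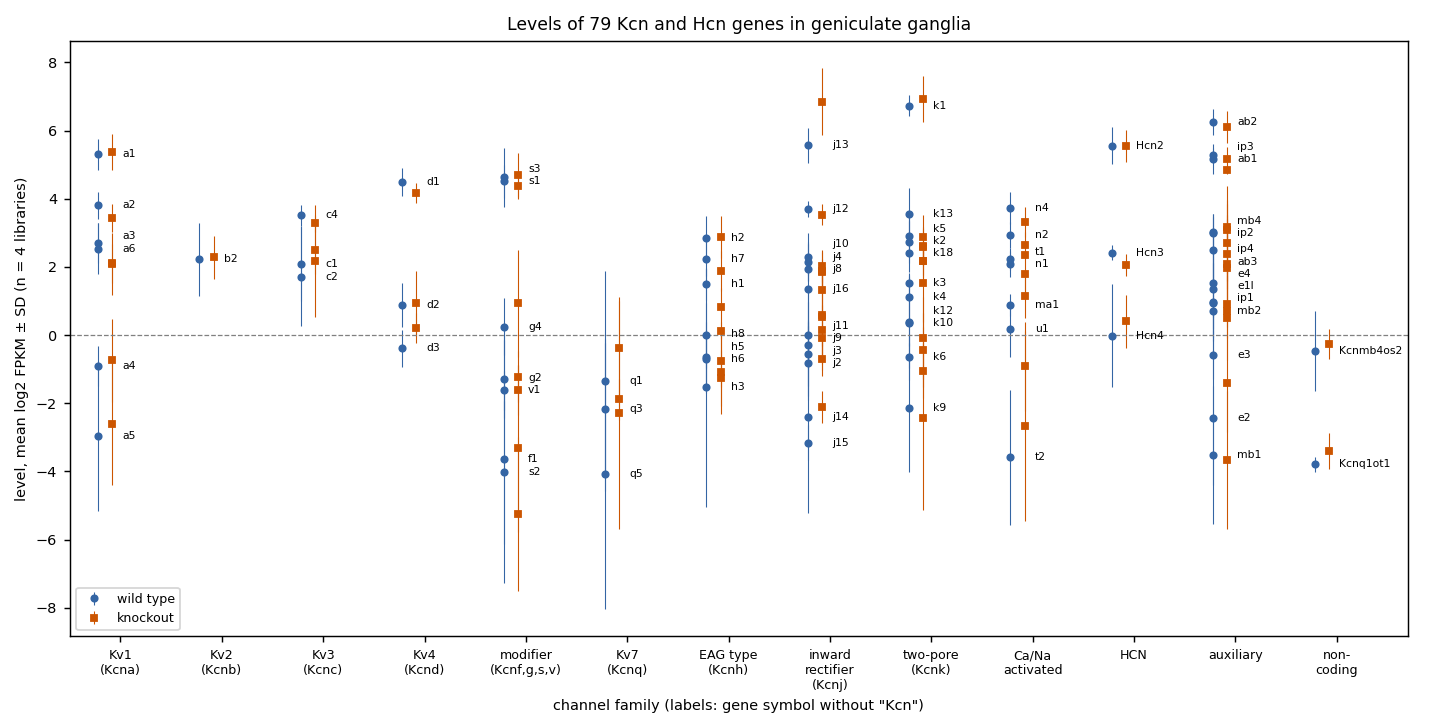
Level of 79 of the 84 genes on the log2 FPKM scale, grouped by family; circles are the mean of 4 wild type and squares the mean of 4 Egr4-/- libraries, and bars are SDs. Kcnk1 has the highest wild type mean, 6.73, and the means of both genotypes lie close together for most genes above 1 FPKM (0 on the axis).

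The question put to each gene was whether ganglia without Egr4 held more or less of its RNA. No member passed: edgeR's quasi-likelihood test called 0 of 84 genes at a Benjamini-Hochberg adjusted p under 0.05, where 0.00662% of all 15110 genes were. The smallest adjusted p among the members was 0.924. DESeq2, the edgeR likelihood ratio test and limma-voom also called 0 members. At an unadjusted p under 0.05 there were 5 members, near the 4.84% of all genes at that level. Of these, 3 were higher in the knockout, against 1.94% of all genes, and 2 were lower, against 2.90%. The counts at that level were 4 by DESeq2, 5 by the likelihood ratio test and 5 by limma-voom, where 6.31%, 5.10% and 4.59% of all genes stood at it. Of the 84, the authors' deposited table gave 0 a false discovery rate under 0.05, against 0.0662% of all genes, and its smallest value was 0.349, for Kcnj13. The log2 fold change was above 0 for 39 members and below 0 for 45, with a median of -0.04, against 0.01 over all genes. For 22 members the 95% interval lay within a 2-fold change either way, and for 62 it reached a 2-fold change or more. In whole ganglia, fewer cells of a type and less RNA per cell cannot be told apart.

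**Figure D2:**
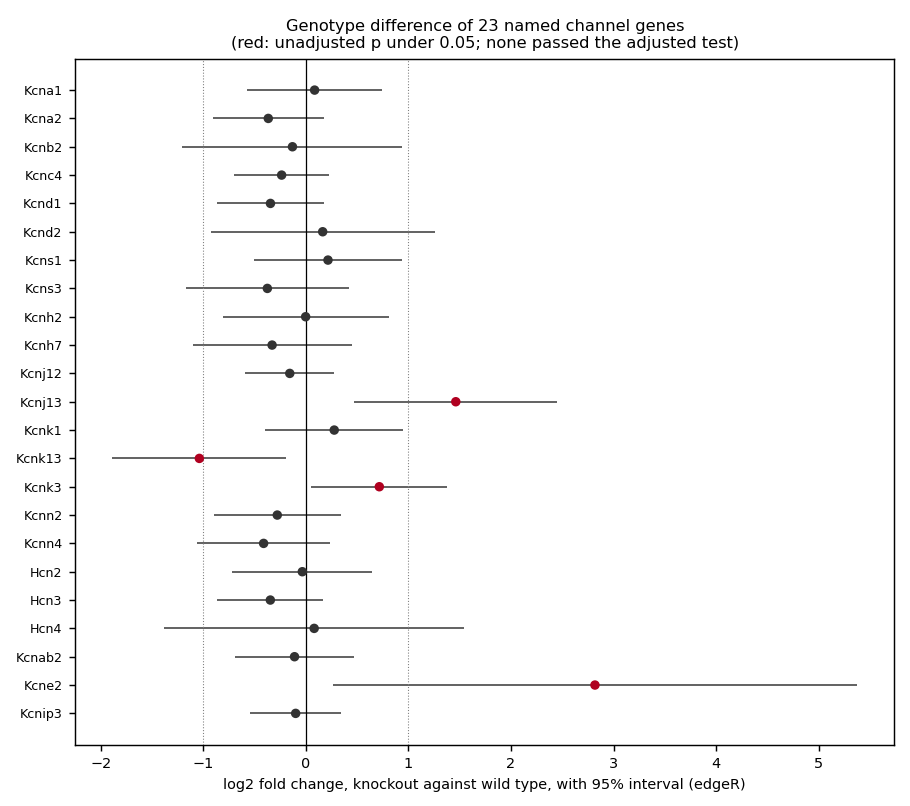
Log2 fold change, knockout over wild type, of 23 channel genes named by rule, with 95% intervals from edgeR's quasi-likelihood fit (4 libraries per genotype). The 4 genes in red had an unadjusted p under 0.05; the remaining intervals include 0, and none of the 23 passed adjustment over all genes.

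No HCN gene separated the genotypes. Hcn2, on chromosome 10 (79716634 to 79736108), encodes the fast-gated, strongly cAMP-sensitive subunit. It stood at 121, 128, 125 and 263 CPM in wild type libraries 1 to 4 and at 129, 104, 217 and 171 CPM in knockout libraries 1 to 4. Wild type library 4 stood far above the other 3, and the genotypes overlapped. Its log2 fold change was -0.04 with a 95% interval from -0.72 to 0.65. Hcn3 (chromosome 3, 89146775 to 89160157) stood at 17.1, 14.5, 17.5 and 21.3 CPM in wild type and, in the knockout, at 17.2, 14.5, 10.2 and 13.4 CPM, which gave a log2 fold change of -0.35 (interval -0.86 to 0.17). Hcn4 (chromosome 9, 58823512 to 58860955), the main pacemaker subunit of the heart, was low and uneven. It stood at 0.884, 3.26, 6.30 and 10.3 CPM in wild type and at 7.54, 2.29, 6.91 and 5.15 CPM in the knockout, with a log2 fold change of 0.08 (interval -1.38 to 1.54).

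Among the Kv1 genes, whose channels sit beside the nodes of myelinated axons and limit excitability, Kcna1 and Kcna2 had the highest levels. Kcna1 stood at 263, 278, 486 and 448 CPM in wild type and at 298, 256, 569 and 441 CPM in knockout libraries. Both genotypes covered nearly the same range, and the log2 fold change was 0.08 (interval -0.57 to 0.74). Kcna2 stood at 117, 145, 194 and 211 CPM and at 141, 81.7, 151 and 143 CPM, with the lowest value in knockout library 2 and a log2 fold change of -0.37 (interval -0.91 to 0.17). For the other members of this family, and the further members given below by their CPM alone, the choice was made after their values were seen. Kcna6 stood at 19.2 to 55.6 CPM in wild type and 14.6 to 36.2 CPM in knockout libraries, and Kcna4, one of the genes with the EGR letters, at 1.48 to 3.70 and 0.111 to 3.25 CPM.

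The Kv2 gene Kcnb2 stood at 10.1, 19.05, 35.4 and 55.7 CPM in wild type and at 26.4, 14.1, 30.7 and 38.7 CPM in the knockout. The genotypes overlapped, and the log2 fold change was -0.13 (interval -1.20 to 0.94). Of the silent modifiers, Kcns3 stood at 110, 76.2, 120 and 32.4 CPM in wild type and at 72.1, 59.0, 45.6 and 83.6 CPM in the knockout. Kcns1 ran the other way within wild type, at 64.3, 41.9, 58.4 and 93.8 CPM, with 63.2, 38.7, 106 and 92.5 CPM in the knockout. Wild type library 4 was thus the lowest wild type library for Kcns3 and the highest for Kcns1. Their log2 fold changes were -0.38 (interval -1.17 to 0.42) and 0.22 (interval -0.51 to 0.94). Another modifier, Kcnv1, stood at 0.774 to 1.93 CPM in all 4 wild type libraries, while 2 of the 4 knockout libraries had no count and another had 0.0369 CPM. Knockout library 1, at 1.14 CPM, lay within the wild type range.

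Kv3 channels close fast and let neurons fire at high rates. Kcnc4 was even across libraries, at 36.3, 28.6, 44.8 and 29.9 CPM in wild type and 34.9, 31.0, 23.2 and 29.2 CPM in the knockout (log2 fold change -0.24, interval -0.70 to 0.22). Of the A-type Kv4 genes, Kcnd1 stood at 88.5, 72.4, 128 and 66.2 CPM and at 58.9, 84.6, 55.8 and 79.9 CPM, so that the log2 fold change was -0.35 (interval -0.87 to 0.18). Kcnd2 stood at 5.43 to 14.4 CPM in wild type and 4.14 to 16.3 CPM in knockout libraries, with a log2 fold change of 0.16 (interval -0.93 to 1.25).

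Of the Kv7 genes, Kcnq3, which contributes to the M current in the brain, was at or under 1.57 CPM in every library. Kcnq1, the subunit of heart and epithelia, stood at 0 to 6.40 CPM in wild type and 1.04 to 9.29 CPM in knockout libraries, and Kcnq5 at 0 to 12.5 and 0 to 7.15 CPM. All 3 were low and overlapped between genotypes. The summed level of pan-neuronal markers overlapped too, at 9158 to 20452 CPM in wild type and 8226 to 21021 CPM in the knockout, while the sum of the 12 geniculate neuron markers did not. Of these 12, 0 were called, and 4 had an unadjusted p under 0.05 by edgeR, against 4.84% of all genes. A log2 fold change below 0 was found for 11 of them, against 48.7% of all genes. Ntrk2, a large part of the sum, overlapped, at 253 to 338 CPM in wild type and 238 to 286 CPM in the knockout.

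The EAG-type genes were low to moderate. Kcnh2, the ERG-type subunit known from cardiac repolarization, stood at 24.8, 22.6, 37.7 and 59.6 CPM in wild type and at 39.3, 17.9, 44.5 and 42.6 CPM in the knockout. Kcnh7, an ERG-type subunit of neurons, stood at 15.7, 12.3, 28.1 and 18.5 CPM and at 20.4, 10.2, 9.27 and 19.5 CPM. Neither gene separated the genotypes, with log2 fold changes of -0.003 (interval -0.81 to 0.81) and -0.33 (interval -1.11 to 0.45). Of the 7 genes of this family, 6 had a log2 fold change below 0, as did 48.7% of all genes, and none passed.

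Kcnj13 had the smallest p-value of the 84 genes. It lies on chromosome 1 (87386284 to 87394729, minus strand) and encodes a weakly rectifying inward rectifier known from the choroid plexus and the retinal pigment epithelium. It stood at 70.02, 94.8, 39.5 and 63.1 CPM in wild type and at 283, 281, 90.6 and 81.6 CPM in the knockout. Knockout libraries 1 and 2 lay far above all others, and knockout libraries 3 and 4 lay below wild type library 2 and above the other 3. Knockout libraries 1 and 2 had no count for Xist, and neither did wild type library 4, where Kcnj13 stood at 63.1 CPM. For Kcnj13 the log2 fold change was 1.46 ± 0.45 (SE; interval 0.47 to 2.45), with an unadjusted p of 0.00815, an adjusted p of 0.924 by edgeR and an exact two-sided permutation p of 0.0857. Of the 12 choroid plexus and meninges markers, 5 (Folr1, Ptgds, Slc6a13, Igf2 and Foxc1) were highest in knockout libraries 1 and 2, the same libraries as Kcnj13, and the other 7 were not. Among those 7, Enpp2 stood at 251 CPM in knockout library 1 against 295 to 647 CPM in wild type, and Dcn was highest in wild type libraries 1 and 2. Ptgds, a prostaglandin D synthase made by the meninges and choroid plexus, stood at 25754, 29939, 9812 and 23317 CPM in wild type and at 92176, 68317, 31834 and 24191 CPM in the knockout. Ttr, the transthyretin of the choroid plexus, stood at 51.1 to 88.5 CPM in wild type and at 127, 918, 184 and 80.8 CPM in the knockout. With Xist class (a count or none) as a covariate, the Kcnj13 log2 fold change was 0.94, with an adjusted p of 0.980 by edgeR. With the mean level of the 12 choroid and meninges markers as a covariate, the Kcnj13 log2 fold change was 0.45, with an unadjusted p of 0.203. That fit was added after the data had been seen. The covariate itself ran from 6.01 to 6.69 in wild type and from 6.31 to 7.81 in knockout libraries, so that fit cannot fully separate it from genotype. The part of choroid and meninges tissue or of Xist class was not tested. Kcnj13 also shares 669 exon bases with Gigyf2 on the opposite strand, and without strand in the counting their reads cannot be told apart; Gigyf2 stood at 17.9 to 33.3 CPM in wild type and 10.9 to 30.5 CPM in the knockout.

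Kcnj12, an inward rectifier of excitable cells, was even, at 58.7, 56.5, 79.9 and 61.5 CPM in wild type and 54.0, 44.98, 55.0 and 76.1 CPM in the knockout (log2 fold change -0.16, interval -0.59 to 0.28). The glial inward rectifier Kcnj10, through which satellite glia and astrocytes take up potassium, stood at 44.7, 36.4, 17.1 and 17.7 CPM and at 27.4, 28.7, 21.2 and 14.3 CPM. Its partner Kcnj16 stood at 17.96, 27.3, 5.29 and 4.17 CPM and at 6.48, 17.6, 11.1 and 7.96 CPM. Both were highest in wild type libraries 1 and 2. Summed satellite glia markers, 12 of 12 measured, stood at 11767 to 19998 CPM in wild type and 10387 to 16163 CPM in the knockout. Summed brain glia markers, 12 of 12 measured, stood at 2983 to 6533 CPM and 2933 to 5515 CPM. The 5515 CPM belonged to knockout library 4, which had the lowest mean log2 CPM of these brain glia markers, 5.46. The other 7 libraries lay between 5.91 and 7.46. The part of both marker lists was not tested. Kcnj8, the pericyte subunit of ATP-sensitive channels, was highest in knockout library 2, at 14.4 CPM, with the other 7 libraries between 6.10 and 9.79 CPM.

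**Figure D3:**
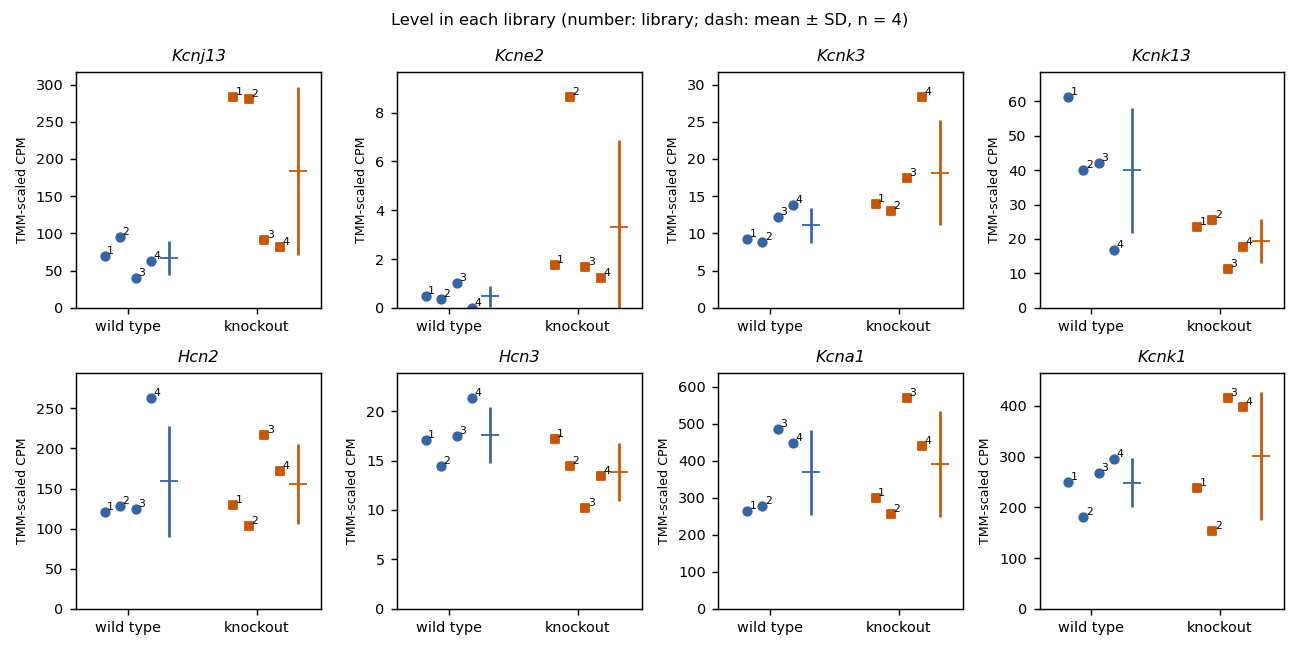
CPM of 8 channel genes in each of the 8 libraries, with the mean and SD of each genotype (n = 4); each panel has its own axis from 0, and the lower SD bar of Kcne2 is cut at 0. Kcnj13 is highest in knockout libraries 1 and 2 (283 and 281), Kcne2 in knockout library 2 (8.64) and Hcn2 in wild type library 4 (263).

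Two-pore leak channels held 2 of the 5 members with an unadjusted p under 0.05. Kcnk13 (chromosome 12, 99964499 to 100062682), a halothane-inhibited leak subunit known from microglia, stood at 61.2, 39.9, 42.0 and 16.9 CPM in wild type and at 23.4, 25.5, 11.2 and 17.7 CPM in the knockout. Wild type libraries 1 to 3 lay above all 4 knockout libraries, and library 4 lay among them. This gave a log2 fold change of -1.04 ± 0.38 (SE; interval -1.89 to -0.19), the unadjusted p 0.0211, the adjusted p 0.924 by edgeR and the exact two-sided permutation p 0.114. Without wild type library 1 it was -0.76, with an unadjusted p of 0.0777. Nor was the unadjusted p of Kcnk13 under 0.05 without knockout library 3. The 14 immune markers cover macrophages and other blood cells together, so their sum is no measure of microglia or macrophages alone. They summed to 948 to 3605 CPM in wild type and to 414 to 1891 CPM in the knockout. Wild type library 4, the lowest of the wild type libraries for Kcnk13, had the highest sum of these markers. Their part in the difference was not tested.

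Kcnk3 (chromosome 5, 30588170 to 30625270), an acid-sensitive leak subunit, stood at 9.30, 8.85, 12.2 and 13.8 CPM in wild type and at 13.9, 13.1, 17.4 and 28.3 CPM in the knockout. Only wild type library 4 and knockout library 2 crossed. Kcnk3 had a log2 fold change of 0.72 ± 0.30 (SE; interval 0.05 to 1.38), with an unadjusted p of 0.0372, an adjusted p of 0.924 by edgeR and an exact two-sided permutation p of 0.0571. Without knockout library 4 it was 0.42. The unadjusted p of Kcnk3 stayed under 0.05 without wild type library 4, knockout library 1 or knockout library 2. It did not when any other single library was left out. The gene shares 229 exon bases with Gm9899, which was not measured. Of the 84 members, 25 share exon bases with another gene, and 7 do so with a gene that was measured. Kcnk1, the gene with the highest level, stood at 250, 181, 268 and 296 CPM and at 238, 154, 415 and 398 CPM, which gave a log2 fold change of 0.28 (interval -0.40 to 0.95). Kcnk18, a leak subunit of sensory neurons, stood at 10.2 to 25.2 CPM in wild type and 9.59 to 17.2 CPM in knockout libraries, and Kcnk2, a stretch-sensitive leak subunit, at 16.3 to 40.3 and 16.2 to 44.0 CPM.

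Among channels opened by calcium or sodium, Kcnn4 (intermediate conductance) stood at 19.8, 21.1, 35.3 and 35.6 CPM in wild type and at 17.1, 30.4, 15.3 and 21.2 CPM in the knockout. Kcnn2 (small conductance) stood at 18.2, 13.9, 11.2 and 20.2 CPM and at 10.4, 10.1, 13.9 and 17.97 CPM. The genotypes overlapped for both, with log2 fold changes of -0.41 (interval -1.06 to 0.23) and -0.28 (interval -0.90 to 0.34). The sodium-activated Kcnt1 was steady, at 21.9 to 37.4 CPM in wild type and 29.8 to 35.2 CPM in knockout libraries, and the large-conductance pore gene Kcnma1 stood at 11.8 to 19.6 and 11.4 to 28.9 CPM.

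The auxiliary subunits included the only member whose genotypes did not overlap, 1 of 84, against 2.62% of all genes (1.21% higher and 1.41% lower in the knockout). Kcne2 (chromosome 16, 92292389 to 92298133) encodes a single-span accessory subunit known from the choroid plexus and the stomach. It stood at 0.494, 0.342, 1.03 and 0 CPM in wild type and at 1.76, 8.64, 1.66 and 1.23 CPM in the knockout. These levels rest on 83 reads in the 4 wild type libraries and 595 in the 4 knockout libraries. For Kcne2 the log2 fold change was 2.82 ± 1.15 (SE; interval 0.26 to 5.38), with an unadjusted p of 0.0339, an adjusted p of 0.924 by edgeR and an exact two-sided permutation p of 0.0286, the smallest that 70 arrangements allow. Without knockout library 2 it was 1.72, with an unadjusted p of 0.168. Nor was the unadjusted p of Kcne2 under 0.05 without wild type library 1 or wild type library 2. Knockout library 2 was also the highest for Ttr, as given for Kcnj13. With the mean of the choroid and meninges markers as a covariate, the Kcne2 log2 fold change was 1.37, with an unadjusted p of 0.359 by edgeR. That fit was added after seeing the data and, as for Kcnj13, cannot fully separate the covariate from genotype. The part of choroid tissue was not tested. Kcnab2, whose protein binds Kv1 channels inside the cell, stood at 233, 231, 311 and 403 CPM and at 246, 171, 352 and 322 CPM, with a log2 fold change of -0.11 (interval -0.69 to 0.47). Kcnip3, a calcium-binding partner of Kv4 channels, stood at 136, 126, 173 and 126 CPM and at 138, 107, 104 and 175 CPM, with a log2 fold change of -0.10 (interval -0.54 to 0.34). Kcnmb1, the BK subunit of smooth muscle, and Kcna5, a Kv1 subunit of vessels, were highest in knockout library 2, at 6.46 and 5.80 CPM, and at or under 1.31 and 1.59 CPM in the other 7. That library also had the highest summed pericyte and smooth muscle markers, 2394 CPM, where the other knockout libraries ranged from 444 to 1145 CPM and wild type from 352 to 863 CPM; their part was not tested.

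Genes whose products bind, place or degrade these channels were read from a separate list, of which 26 of 30 were measured. The same edgeR fit called 0 of them, and 2 had an unadjusted p under 0.05, where 4.84% of all genes did. The log2 fold change was above 0 for 14 and below 0 for 12, with a median of 0.06. Cntn2, the axonal adhesion protein that gathers Kv1 channels beside nodes, stood at 83.2, 89.3, 116 and 57.5 CPM in wild type and at 53.4, 56.2, 51.8 and 24.6 CPM in the knockout. The genotypes did not overlap, and the log2 fold change was -0.90 ± 0.29 (SE), with an unadjusted p of 0.0107 and an exact two-sided permutation p of 0.0286. Myelinating Schwann cells also make Cntn2, and 15 Schwann cell and myelin markers summed to 28415 to 48745 CPM in wild type and 16082 to 36896 CPM in the knockout; their part was not tested. Nedd4l, a ubiquitin ligase for ion channels, stood at 29.8, 26.4, 35.1 and 35.2 CPM and at 18.9, 27.3, 22.7 and 23.7 CPM (log2 fold change -0.45 ± 0.19 SE, unadjusted p 0.0377). Cntnap2, the Cntn2 partner at the same site, had a log2 fold change of -0.22 with an unadjusted p of 0.259.

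The 8 libraries differed widely for many channel genes. Among the 56 members at 1 FPKM or more, the highest library exceeded the lowest by a median of 3.25-fold in CPM with a prior count of 2, and 23 of 56 (41.1%) spanned 4-fold or more. Over the 12509 genes of the table at that level the median was 2.10-fold and the share 15.2%; the members' median level was lower (a log2 FPKM of 2.35 against 3.25), and the 2 were not matched. The widest members were Kcnk12 (19.97-fold), Kcnab3 (17.3-fold) and Kcnc2 (16.2-fold), and among the narrowest were Kcnmb2 (1.58-fold), Kcnip3 (1.67-fold) and Kcnt1 (1.71-fold).

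In 1 recurring arrangement, knockout libraries 1, 3 and 4 and wild type library 4 were the 4 highest libraries for 14 of the 84 members (16.7%), against 6.84% of all genes. Among the 14 were Kcnc1, Kcnc2, Kcnab3, Kcnip1, Kcnip2, Kcnip4, Kcnh2, Hcn2, Kcnj11, Kcnj14, Kcnd3, Kcnq5 and Kcnk3, a list set by these values. Kcnc1 stood at 18.2, 30.9, 41.5 and 112 CPM in wild type and at 50.7, 27.8, 65.9 and 86.1 CPM in the knockout. Kcnc2 stood at 10.4, 13.8, 13.1 and 90.2 CPM and at 28.4, 5.52, 72.0 and 53.1 CPM. The calcium-binding protein gene Calb2, chosen after its values were seen, was highest in the same 4 libraries and ranged more widely, at 7.20, 19.98, 11.8 and 1140 CPM in wild type and at 370, 15.4, 1046 and 796 CPM in the knockout. Pvalb, another calcium-binding protein gene, stood at 11.5 to 32.0 CPM in wild type libraries 1 to 3 and knockout library 2 and at 352 to 512 CPM in the other 4. Of the 14 brain neuron markers, the sum was 169, 265, 182 and 1195 CPM in wild type and 660, 188, 1530 and 2033 CPM in the knockout. Pvalb and Calb1 are among these markers, and in wild type library 4 they stood at 512 and 467 CPM, most of the sum. The mean log2 CPM of the 14 markers was 2.48, 3.28, 1.51 and 2.83 in wild type. In the knockout it was 2.80, 2.99, 4.93 and 5.78, so that by this measure wild type library 4 was not the highest wild type library. The part of these markers in the levels of the 14 channel genes was not tested.

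**Figure D4:**
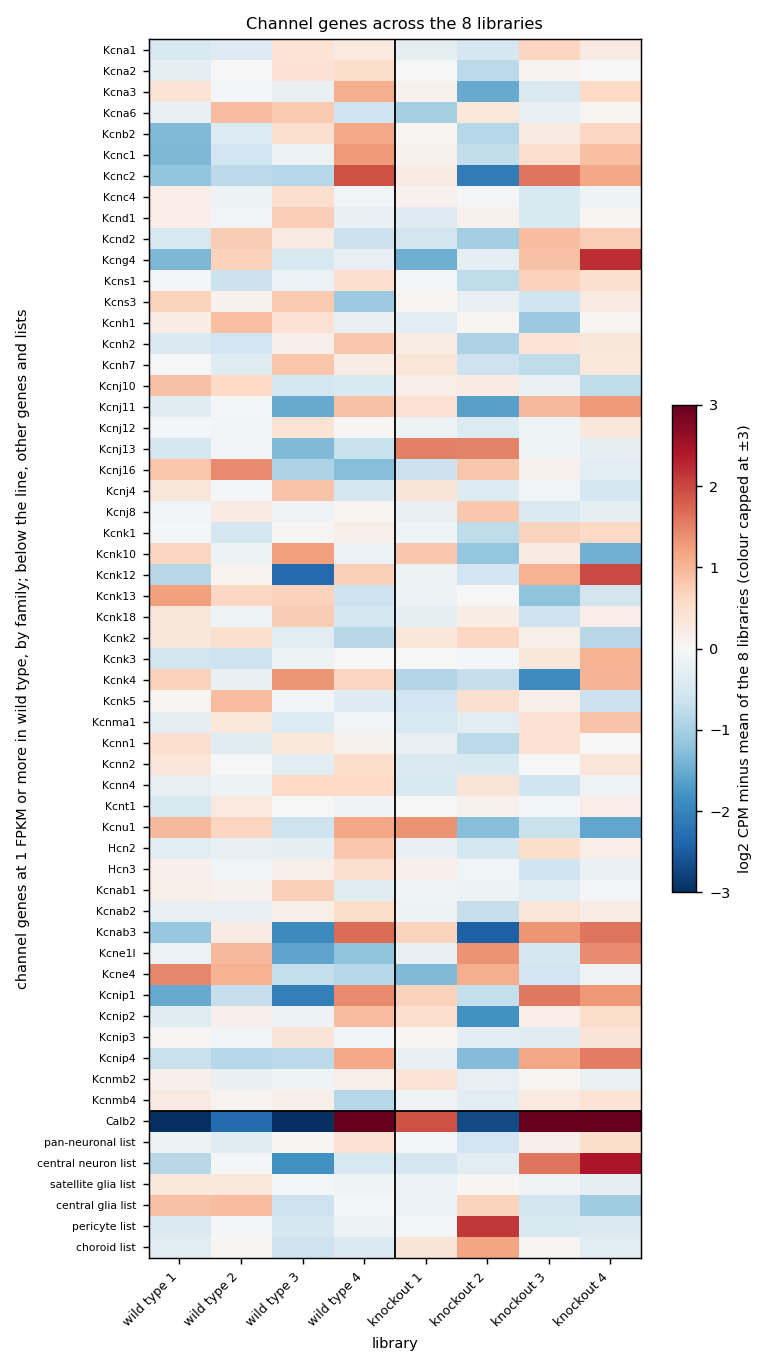
Level of 51 channel genes at 1 FPKM or more, of Calb2 and of marker lists in each library, as log2 CPM minus the mean of the 8 libraries (colour capped at 3 either way). Knockout libraries 1, 3 and 4 and wild type library 4 are high for Kcnc1, Kcnc2 and Calb2, and no family separates the genotypes.

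The count of members at an unadjusted p under 0.05 rested on wild type library 4. Without it 16 of 84 had an unadjusted p under 0.05, against 7.43% of all genes. None of the 84 was called by edgeR in that fit, where the lowest adjusted p was 0.618. The 16 were 10 with higher values in the knockout, among them Kcnc1, Kcnc2, Kcnip1, Kcnip4 and Kcnd3 of the recurring arrangement, and 6 with lower values, among them Kcnab1, Kcnh1, Kcnh3, Kcns3 and Kcnk13. Leaving out each of the other libraries gave 2 to 9 members: 9 (10.7%, against 3.39% of all genes) without knockout library 1, 3 (3.57%, against 4.58%) without knockout library 3 and 2 (2.38%, against 5.27%) without wild type library 1. Kcnj13 was among them in every one of the 8 fits.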

How the data were processed

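Total RNA from geniculate ganglia was amplified with a low-input full-length cDNA kit and sequenced as paired reads, per the labels' protocols. Tools listed in the submitters' processing notes are STAR 2.5, Subread 1.5.1 with featureCounts, FastQC 0.11.5 and edgeR 3.12.1, with mm10 as build; whether counting used strand is not given in the sources used here. The deposited table, made by the authors, holds raw read counts per gene, log2 FPKM, log2 fold changes, and p-values with false discovery rates. It also gives gene lengths and linear fold changes, which the authors deposited for the same comparison. Deposited log2 FPKM and values recomputed from counts and lengths differed by at most 0.00304 over 5330 genes. Total counts were 30849310 to 54255872, with no pair of libraries alike enough to be 1 library deposited under 2 names.

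The counts of all 15110 genes were fitted with edgeR 4.0.16 in R 4.3.3 (TMM factors, filterByExpr, which removed 0 genes, robust quasi-likelihood test of genotype, no covariate), with Benjamini-Hochberg adjustment across the whole table at 0.05. Single genes also had an exact two-sided permutation test of log2 CPM (prior count 2) over 70 arrangements, which cannot go below 0.0286. Intervals are 95%. The 28 genes named by rule were the 4 Hcn genes, the 2 highest members of each family, and members with an unadjusted p under 0.05 or no overlap between genotypes; 5 of these are not reported here, though counts over the 84 members include them. Members, partner genes and marker lists were chosen with earlier results of these data known. Whether the mice were from separate litters is not stated, so p-values measure the spread between these samples. Alternatives used DESeq2 1.42.0 and limma 3.58.1, other factors, filters, covariates and left-out libraries. Exon overlaps are with exons of other genes in GENCODE M21 on GRCm38. Gene coordinates are those of the deposited table, and promoter coordinates those of the RefSeq promoter sequences. The fits were tested on simulated counts.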

Additional observations from a re-analysis of the deposited data

Results flagged for a closer look

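In groups of 4 libraries, a library was listed where its gap to the nearest other took more of the group's range in CPM than Dixon's 95% limit. Of 60 groups of genes and marker sums tested, 5 passed, where chance gives about 3.0. Hcn2 in wild type was flagged for library 4, at 263 CPM against 121 to 128 CPM in the other 3 (0.948 of the range). The summed level of brain neuron markers in wild type was flagged for the same library, at 1195 CPM against 169 to 265 CPM (0.906). Most of that sum was Pvalb (512 CPM) and Calb1 (467 CPM). The mean log2 CPM of the same markers was 2.83 in library 4, within the 1.51 to 3.28 of the other 3. Kcne2 in the knockout was flagged for library 2, at 8.64 CPM against 1.23 to 1.76 CPM (0.929). Kcna2 in the knockout was flagged for library 2 at the low end, at 81.7 CPM against 141 to 151 CPM (0.857). The summed geniculate neuron markers in wild type were flagged for library 3, at 1144 CPM against 833 to 878 CPM (0.856).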

How the results depend on the processing

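Over 20 alternative fits no member was called, and 4 to 7 members had an unadjusted p under 0.05 with all libraries, while the share of all genes ran from 4.31% to 12.4% (7 members with 12.4%, under the choroid covariate). With a library left out there were 2 to 16 members, with 2.72% to 7.43% of all genes. Partner genes at that level numbered 1 by the likelihood ratio test (5.10% of all genes), 4 with the pan-neuronal mean as a covariate (7.66%) and 1 to 3 when a library was left out. Members whose genotypes did not overlap numbered 2 to 8 when a library was left out, with 3.98% to 7.39% of all genes. The median log2 fold change of the members was 0.06 by limma-voom, 0.03 with the replicate block and, with the choroid and meninges mean as a covariate (chosen after seeing the data), 0.11. Of 460 values of named genes, 34 changed sign, all of genes that did not pass the test. With the choroid covariate the log2 fold changes turned to 0.33 for Kcnab2, 0.16 for Kcnip3, 0.62 for Kcnh2, 0.13 for Kcnh7, 0.32 for Hcn2, 0.15 for Kcnj12, 0.015 for Kcna2 and 0.57 for Kcnb2. By limma-voom Kcnh2 was 0.015 and Kcnb2 0.057, and with the replicate block they were 0.022 and 0.032. With the pan-neuronal mean as a covariate Kcnd2 was -0.0096. Leaving out a library gave -0.24 to 0.31 for Hcn2, -0.27 to 0.65 for Hcn4, -0.15 to 0.24 for Kcna1, -0.26 to 0.075 for Kcnab2, -0.42 to 0.35 for Kcnb2, -0.17 to 0.48 for Kcnd2, -0.17 to 0.34 for Kcnh2 and -0.27 to 0.016 for Kcnip3. The cause was not tested. Replicate numbers shared by the genotypes were not taken as pairs, because the labels give them no meaning and not every correlation of same-numbered deviations was over 0.1 (0.08, 0.22, 0.04 and 0.11); wild type libraries 1 to 4 correlated best with knockout libraries 1, 2, 2 and 4, and the replicate block gave 6 members (7.14%) at an unadjusted p under 0.05, against 9.61% of all genes, up from 4.84%. A threshold of 0.5 FPKM kept 68 members in wild type and one of 2 FPKM kept 46. With 4 libraries a genotype and a spread this wide, 2-fold changes were within the interval of most members.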
